A study of Homo sapiens with 8 samples.

Results

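The cystatins are a family of small proteins that bind and block papain-like cysteine proteases, above all the lysosomal cathepsins. RNA-seq counts were examined for 7 cystatin genes, CST1, CST2, CST3, CST4, CST6, CSTA and CSTB, among the 23393 gene symbols of one table of read counts. These genes were picked because CST1 and CST4 were nearly lost from arginine-starved parental cells, so their counts in that comparison describe the choice and are given without a test. All 7 were listed in the table, and 6 of them passed the filter on low counts, as did 15262 genes in all. CSTA did not pass it. Since a gene could pass the filter through 1 group in which it was high, the 6 are not described as the whole family.

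The study asked how arginine starvation changes transcription in MDA-MB-231 cells and whether cells without mitochondrial DNA respond in the same way. MDA-MB-231, an established line from a human breast carcinoma, is deficient in ASS1 and so depends on arginine from the medium. There were 4 groups of 2 libraries each, namely parental MDA-MB-231 cells in full medium (parental control), parental cells starved of arginine for 48 h (parental starved), ρ0 cells in full medium (ρ0 control) and ρ0 cells starved for 48 h (ρ0 starved). The sample labels describe starvation as arginine deiminase, an arginine-degrading enzyme, at 0.3 µg/mL, whereas the study's methods describe arginine-free medium with dialyzed serum. The ρ0 cells were a single line, labelled 27, without mitochondrial DNA. Their medium held sodium pyruvate, uridine and ethidium bromide, none of which is named for the parental line. Clone, medium and loss of mitochondrial DNA therefore cannot be told apart in any comparison between the lines. Nothing in the labels says that replicate libraries came from separate cultures, so p-values measure only the spread between these samples, which may be technical.

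The 8 libraries held from 25259503 (ρ0 starved, replicate 2) to 31022155 counts (ρ0 starved, replicate 1). The ρ0 control libraries stood apart from each other, with 25.1% biological coefficient of variation, against 5.16% between the parental control, 2.29% between the parental starved and 1.84% between the ρ0 starved libraries. A call that leaving out 1 of them ends is therefore given without that library as well. Markers of a mesenchymal breast line were abundant in both lines, and VIM had 56616 and 51425 counts in parental control and 84507 and 113045 in ρ0 control. Of the 5 markers of that list, VIM and CAV1 were called lower in parental starved cells, with log2 fold changes of -1.71 and -1.48, where CD44 was at -0.63, AXL at 0.20 and EGFR at 0.14. None of the 5 was called in ρ0 starved cells, where VIM was at -0.77 and EGFR at 0.90. CDH1, the epithelial cadherin, had 2 and 0 counts in parental control but 457 and 440 in ρ0 control and 141 and 104 in ρ0 starved libraries. FOXA1, a luminal transcription factor, had 245 and 212 counts in parental control and 1 in each ρ0 control library, whereas GATA3 and KRT18 of the same list were called higher in ρ0 control cells, by 1.87 and 1.56 on the log2 scale, and ERBB2 was at 0.57. The lines thus differed in epithelial and luminal markers as well, and the part of this in the cystatin differences was not tested. The leukocyte marker CD3E had no counts in any library. PTPRC, another leukocyte marker, had 11 and 13 counts in parental control, 1 and 2 in parental starved, 7 and 12 in ρ0 control and 3 and 0 in ρ0 starved libraries. It was called lower by starvation in both lines, at least 3.47-fold in parental and at least 2.79-fold in ρ0 cells. PTPRC passed the filter only through control libraries, in which it was high, so its calls are not read as results. Its part in the cystatin differences was not tested.

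Cystatins occur in a few types. CSTA and CSTB, the stefins, lack a signal peptide and act inside the cell. CST1 (cystatin SN), CST2 (cystatin SA), CST3 (cystatin C), CST4 (cystatin S) and CST6 (cystatin E/M) are type 2 cystatins, which are secreted and carry disulfide bonds. CST1, CST2 and CST4 are best known from saliva and tears, CST3 is made by nearly all nucleated cells and serves as a serum marker of kidney function, and CST6 also inhibits legumain and is often silenced in breast tumors. CST1 has been described as raised in several carcinomas.

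CST1, CST2 and CST4 are close paralogs, which bears on how their reads could be assigned. Their coding sequences, taken from 1 GENCODE v29 transcript each, were 423 bases long without the stop codon and aligned without a gap. CST1 and CST4 were identical at 392 bases (92.7%), CST1 and CST2 at 386 (91.3%), and CST2 and CST4 at 391 (92.4%). CST3 was more distant, at 69.6% to CST1. Over the coding sequence, 50 positions (11.8%) differed between at least 2 of the 3 genes. The longest run identical in all 3 was 87 bases, and its first 60 bases, from coding base 274 to 333 counted from the A of the start codon, are shown because a read within them fits all 3 genes equally.
CST1: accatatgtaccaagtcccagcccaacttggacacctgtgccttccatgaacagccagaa
CST2: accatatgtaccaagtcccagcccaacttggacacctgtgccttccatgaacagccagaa
CST4: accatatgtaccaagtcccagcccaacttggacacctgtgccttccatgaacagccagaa

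Of all windows of 50 bases in the transcript, 27.3% for CST1, 30.2% for CST4 and 8.3% for CST2 matched a transcript of another family gene exactly. With 2 mismatches allowed, these shares were 54.6%, 60.4% and 32.9%. For windows of 100 bases, 8.0% of CST1, 8.1% of CST4 and none of the 649 of CST2 were shared exactly. No window of CST3, CST6, CSTA or CSTB was shared exactly with another gene at either length. Read length and the treatment of reads with several matches are not given in the sources used here, so counts of CST1, CST2 and CST4 are uncertain to this extent, and their sum is given beside them. In GENCODE v29, CST3 also overlaps a long noncoding RNA on its own strand, whose reads could have been counted with it.

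In parental control cells, CST3, CST1, CSTB and CST4 were well expressed, CST2 was low and CST6 and CSTA were near or at 0 (the plot of normalised read counts by library). Levels of different genes were compared as CPM, counts scaled to library size, per kilobase of transcript. In parental control cells CST3 had 121 ± 20.3 CPM per kilobase (SD, n = 2), followed by CST1 with 73.8 ± 2.16, CSTB with 40.7 ± 0.839, CST4 with 37.1 ± 1.52, CST2 with 5.06 ± 0.403 and CST6 with 0.364 ± 0.0678. The value of CSTB rests on a transcript of 2164 bases, against 748 to 873 for the others. In ρ0 control cells the order was CST3 (277 ± 27.4), CST1 (116 ± 55.2), CSTB (81.7 ± 1.05), CST4 (28.6 ± 0.607), CST2 (21.1 ± 0.0884) and CST6 (14.8 ± 0.481), and CST1 and CSTB did not differ beyond their spread. In ρ0 starved cells, CST3 (165 ± 9.51) and CSTB (69.3 ± 4.62) stayed ahead of CST1 (17.7 ± 0.975). CST6 (7.33 ± 0.336), CST2 (6.98 ± 0.859) and CST4 (6.95 ± 0.0841) followed close together. CST2 lay within its spread of CST6 and CST4, which differed from each other by more than the SD of either.

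**Figure D1:**
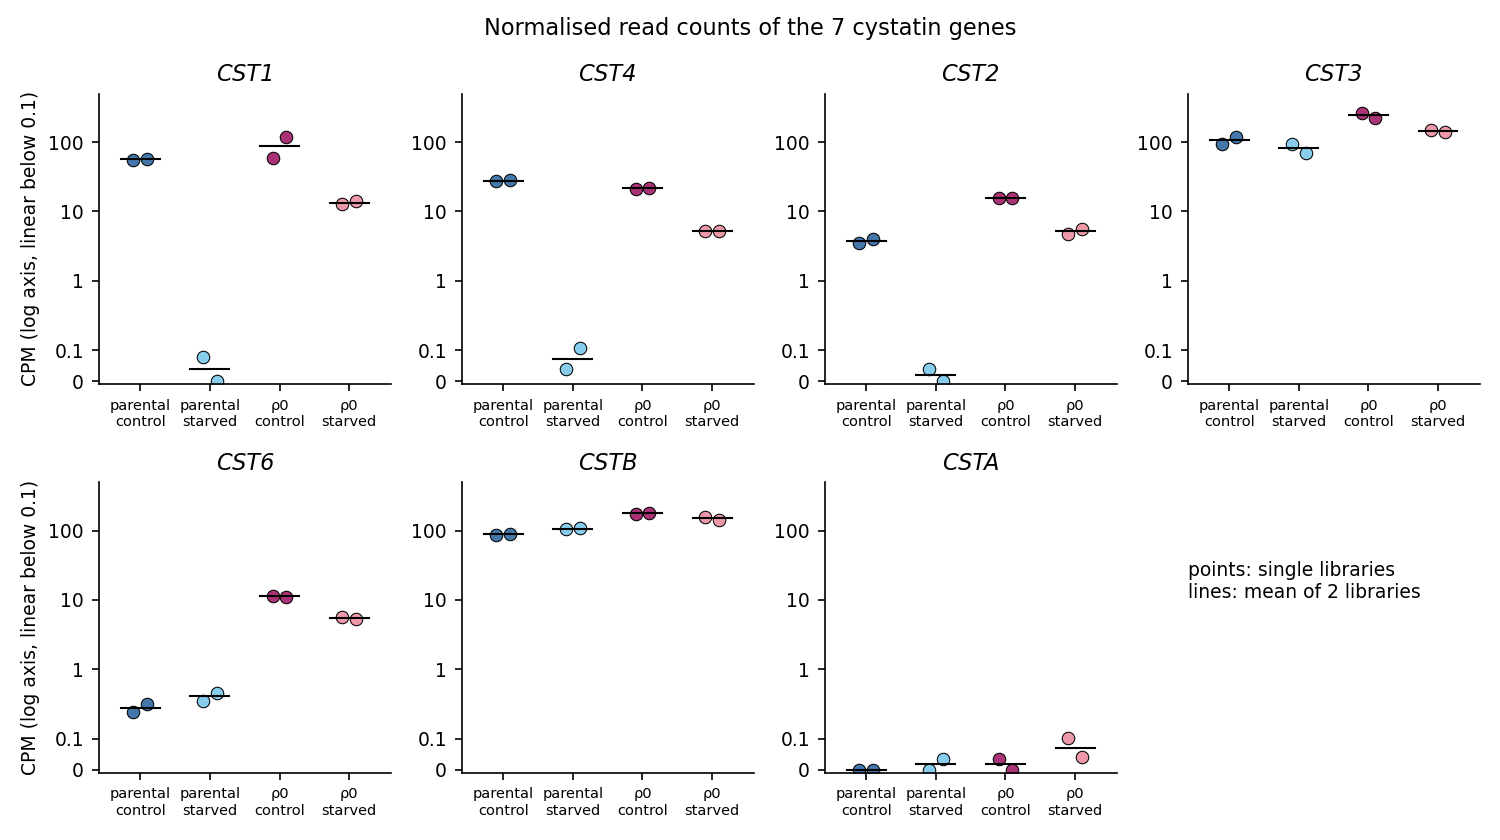
Normalised read counts of the 7 cystatin genes in CPM (vertical axis, logarithmic above 0.1 and linear below) in the 4 groups. Points are single libraries and lines are means of 2 libraries. CST1, CST2 and CST4 sit at or near 0 in parental starved cells, CST6 is seen at over 5 CPM in ρ0 cells only, and CSTA stays near 0 throughout.

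In parental cells, arginine starvation left almost no reads of CST1, CST4 and CST2, while CST3 and CSTB were still present at levels near those of control cells. These values chose the genes, or belong to the comparison that did, and carry no test. CST1 had 1833 and 1649 counts in parental control and 2 and 0 in parental starved libraries. CST4 had 902 and 825 counts in control and 1 and 3 in starved libraries. CST2 had 119 and 115 counts in control and 1 and 0 in starved libraries. All 3 groups of control values lay far above the starved ones. Against a floor of 3 counts per library, CST1 was at least 498-fold, CST4 at least 247-fold and CST2 at least 33.6-fold lower in starved cells. The fitted log2 fold changes, which depend on the prior count, were -10.39, -8.46 and -7.36. In bulk samples, fewer expressing cells and less RNA per cell cannot be told apart. The bound for CST2 is the lowest of the 3, and its control level, 3.78 ± 0.302 CPM (SD, n = 2), was the lowest as well.

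The other members give the contrast within the family. CST3 had 92.8 and 118 CPM in parental control and 94.8 and 70.6 CPM in parental starved libraries, so the groups overlapped. CSTB had 86.7 and 89.3 CPM in control and 105 and 108 CPM in starved libraries, slightly higher without overlap. CST6 was at 8 and 9 counts in control and 9 and 13 in starved libraries, too few for a statement on size. CSTA had 0 and 0 counts in control and 0 and 1 in starved libraries. The log2 fold changes were -0.35 for CST3, 0.28 for CSTB and 0.58 for CST6. For comparison, 22.1% of all tested genes were called lower and 12.7% higher by parental starvation, where a called gene had a Benjamini-Hochberg adjusted p under 0.05 in the edgeR quasi-likelihood test and moved by more than 1 on the log2 scale. Nothing is read from this share for genes chosen on the same comparison.

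The rule that chose the genes named parental starved cells only, so the response of ρ0 cells was tested, with the spread estimated over all 8 libraries. Starvation also lowered the 3 paralogs in ρ0 cells, but to a level that was still well measured. CST1 had 58.4 and 118 CPM in ρ0 control and 12.9 and 14.0 CPM in ρ0 starved libraries. Both starved libraries were lower than both controls, and the controls differed 2.02-fold from each other. The log2 fold change of CST1 was -2.71 ± 0.32 (SE, 95% confidence interval -3.46 to -1.96, edgeR quasi-likelihood adjusted p = 7.4e-04). It was -3.13 without ρ0 control replicate 1 and -2.11 without replicate 2, and was called in both cases.

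CST4 showed little spread between replicates. It had 21.1 and 21.8 CPM in ρ0 control and 5.17 and 5.26 CPM in ρ0 starved libraries, and the gap between the groups far exceeded the distance within them. Its log2 fold change was -2.04 ± 0.13 (SE, adjusted p = 1.2e-04, same test). CST2 had 15.8 and 15.7 CPM in ρ0 control and 4.77 and 5.67 CPM in ρ0 starved libraries, with a log2 fold change of -1.60 ± 0.18 (SE, adjusted p = 6.9e-04). Without ρ0 control replicate 1 the values were -2.06 for CST4 and -1.60 for CST2, and both genes were called without either ρ0 control library.

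CST6, which parental cells hardly expressed, had 331 and 341 counts in ρ0 control and 170 and 130 in ρ0 starved libraries, or 11.5 and 11.0 CPM against 5.75 and 5.38 CPM. The groups did not overlap. Its log2 fold change of -1.01 ± 0.15 (SE, edgeR quasi-likelihood adjusted p = 0.0021) lay just past the fold threshold, and it was -0.97 without ρ0 control replicate 1, which ends the call. CST6 was thus the called member nearest the fold threshold, and CST3 the nearest of the tested members that were not called. CST3, the most abundant member per kilobase of transcript, had 259 and 225 CPM in ρ0 control and 150 and 138 CPM in ρ0 starved libraries. Its log2 fold change was -0.75 ± 0.17 (SE, adjusted p = 0.010). CSTB had 175 and 178 CPM in ρ0 control and 157 and 143 CPM in ρ0 starved libraries, with a log2 fold change of -0.24 ± 0.08 (SE, adjusted p = 0.044), and its adjusted p was 0.0815 to 0.354 when any library other than a ρ0 control was left out. CSTA had 1 and 0 counts in ρ0 control and 3 and 1 in ρ0 starved libraries, so no difference was detectable at this depth.

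Of the 6 tested members, 4 were called lower in ρ0 starved cells (CST1, CST2, CST4 and CST6) and none higher, whereas 8.19% of all tested genes were called lower and 4.22% higher. Both starved libraries lay below both controls for 6 of 6 members, as they did for 34.5% of all tested genes. The median log2 fold change of the 6 was -1.30, against -0.02 over all tested genes. CST1 and CST4 were picked for their loss in the starved parental line, and reads could be shared among CST1, CST2 and CST4. CST6 lay at the fold threshold. The 6 are therefore not independent of the choice or of each other, and nothing is read from their number or median against all tested genes. With CST1, CST2 and CST4 summed to 1 feature before the fit, so that the assignment of reads among them could not matter, the log2 fold change was -2.39 ± 0.21 (SE, edgeR quasi-likelihood adjusted p = 2.7e-04).

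**Figure D2:**
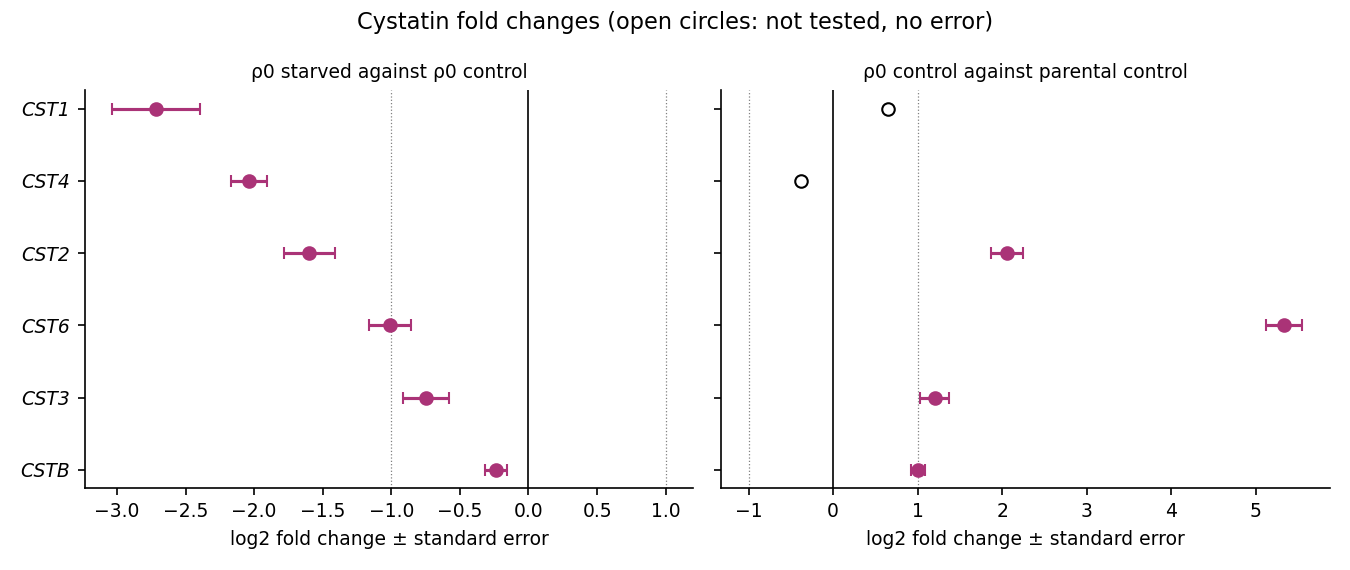
Log2 fold changes (horizontal axes) of the 6 tested cystatins in ρ0 starved against ρ0 control cells (left) and in ρ0 control against parental control cells (right). Filled points carry standard errors, open circles mark CST1 and CST4, which were not tested between the lines, and dotted lines mark the fold threshold. All 6 values on the left are below 0, and the largest on the right is 5.33 for CST6.

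Set side by side, ρ0 starved cells retained 15.3% of the control mean CPM of CST1, 24.3% of CST4 and 33.1% of CST2. Parental starved libraries held 0 to 3 counts of these genes, which allow bounds only. Against the floor of 3 counts, the parental falls were at least 498-fold, 247-fold and 33.6-fold in the same order. For CST3, 59.4% was left in ρ0 and 78.5% in parental cells, where its groups overlapped, and for CSTB 84.9% and 121%. For CST6, 49.6% was left in ρ0 cells, and the parental counts were too few for a percentage. The difference between the responses contains the comparison on which the genes were chosen and was not tested for the members.

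Between the lines in full medium, CST6, CST2, CST3 and CSTB were higher in ρ0 cells. CST6 showed the widest gap, from 8 and 9 counts in parental control to 331 and 341 in ρ0 control, with a log2 fold change of 5.33 ± 0.22 (SE, edgeR quasi-likelihood adjusted p = 2.2e-06). CST2 had 3.57 and 3.99 CPM in parental control and 15.8 and 15.7 CPM in ρ0 control, a log2 fold change of 2.06 ± 0.19 (SE, adjusted p = 6.8e-05). CST3 rose from 92.8 and 118 to 259 and 225 CPM, 2.30-fold with an SE of 0.17 on the log2 scale (adjusted p = 6.0e-04). None of these groups overlapped.

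CSTB had 86.7 and 89.3 CPM in parental control and 175 and 178 CPM in ρ0 control, 2.01-fold higher with an SE of 0.08 on the log2 scale (adjusted p = 3.4e-05, same test). It stood at the fold threshold, and its log2 fold change was 0.98 with upper-quartile scaling and 0.91 with scaling by total counts, which ends the call, as did a filter at a mean of 1 CPM and leaving out parental control replicate 1 (0.98). Over all tested genes, 13.6% were called higher and 17.3% lower in ρ0 control cells. The parental control libraries of CST1 and CST4 were part of the comparison that chose them, so these genes are described only. CST1 had 55.0 and 57.3 CPM in parental control and 58.4 and 118 CPM in ρ0 control, and CST4 had 27.0 and 28.7 against 21.1 and 21.8 CPM. The sum of CST1, CST2 and CST4 had a log2 fold change of 0.51.

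The share of each paralog in the reads of all 3 is given as a description, without a test between groups. In parental control libraries CST1 took 64.2% and 63.7% of their summed counts, CST4 31.6% and 31.9%, and CST2 4.17% (exact 95% binomial interval 3.47 to 4.97) and 4.44% (3.68 to 5.31). In ρ0 control libraries CST2 took 16.6% (15.2 to 18.0) and 10.1% (9.30 to 11.0), and in ρ0 starved libraries 20.9% (17.9 to 24.1) and 22.8% (19.5 to 26.4). These intervals cover counting error only. The share of CST2 was thus higher in every ρ0 library than in either parental control library. The share of CST1 was 61.3% and 75.8% in ρ0 control and 56.5% and 56.1% in ρ0 starved libraries, and the ρ0 controls again differed from each other. Parental starved libraries held only 4 and 3 counts over the 3 genes, too few for shares.

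**Figure D3:**
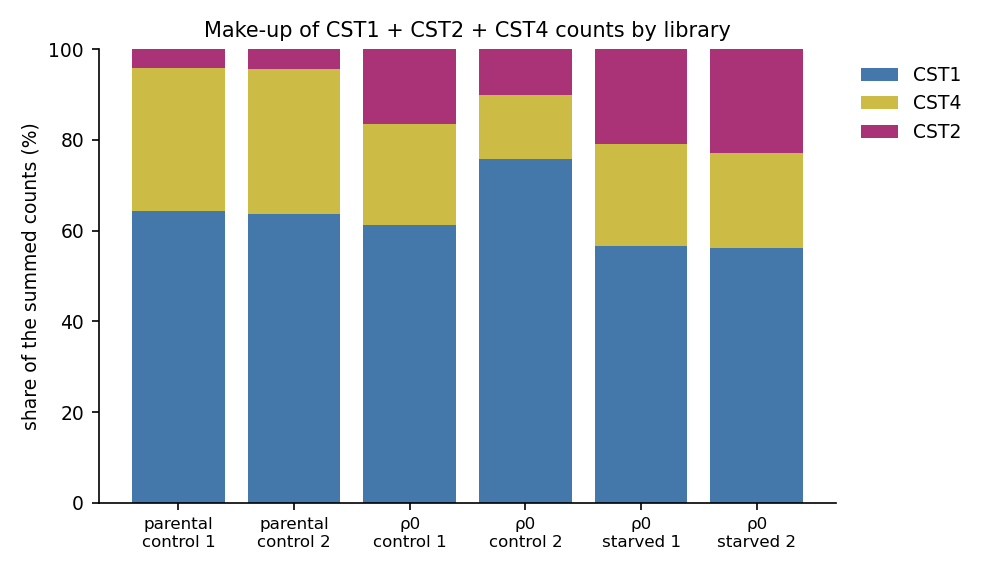
Shares of CST1, CST4 and CST2 (stacked bars, % of the summed counts of the 3 genes) in single libraries of 3 groups, with parental starved cells left out for want of counts. CST2 takes over 10% in each ρ0 library and under 5% in both parental control libraries.

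CST1, CST2, CST3 and CST4 lie within the type 2 cystatin cluster on chromosome 20, whose order is CSTL1, CST11, CST8, CST9L, CST9, CST3, CST4, CST1, CST2 and CST5 in RefSeq. CST7 (cystatin F), which inhibits cathepsin C in immune cells, lies a few listed genes further on. CSTL1, CST11, CST8 and CST9L had no counts in any library, CST9 had 1 count in 1 library, and CST5 had 1 count in each ρ0 library and 0 in the parental ones. CST3, CST4, CST1 and CST2 were the expressed neighbours, and of these CST3 was not lost from parental starved cells. CST7 had 26 and 21 counts in parental control, 8 and 8 in parental starved, 250 and 101 in ρ0 control and 115 and 126 in ρ0 starved libraries. It was called higher in ρ0 control than in parental control cells (log2 fold change 2.97, standard error 0.48, edgeR quasi-likelihood adjusted p = 0.0012), with 2.10 and 3.57 when ρ0 control replicate 1 or 2 was left out, and neither starvation response was called (adjusted p = 0.12 and 0.48). The liver-derived type 3 relatives AHSG, FETUB, KNG1 and HRG had at most 7 counts in any library.

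Of 13 genes listed as neighbours on either side of the cluster, 10 were tested. Of these, 2 were called higher (NXT1 and GZF1) and 2 lower (SYNDIG1 and ACSS1) in parental starved cells, against 12.7% higher and 22.1% lower of all tested genes, and the median over the 10 was 0.08. In ρ0 starved cells THBD alone of the 10 was called, where 4.22% of all tested genes were called higher. It was higher by 1.46 ± 0.16 on the log2 scale (SE, edgeR quasi-likelihood adjusted p = 5.3e-04). SYNDIG1, which codes for a synaptic membrane protein and follows GGTLC1 beyond the end of the cluster, had 37 and 36 counts in parental control and 0 and 0 in parental starved libraries, at least 10.5-fold lower. It had 1 and 0 counts in ρ0 control, so it passed the filter only through the group in which it was high. Its call is therefore not read as a result, and of the 2 neighbours called lower only ACSS1 is. Nothing is read from their number against the 22.1% of all tested genes. GGTLC1, between CST5 and SYNDIG1, had at most 1 count in any library. NXT1 and GZF1, on the other side, had log2 fold changes of 1.13 and 1.21 in parental starved cells, and NXT1, at 0.97 with scaling by total counts, then lost its call. NAPB, the tested gene next to the cluster on that side, had a log2 fold change of -0.04 (adjusted p = 0.87).

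**Figure D4:**
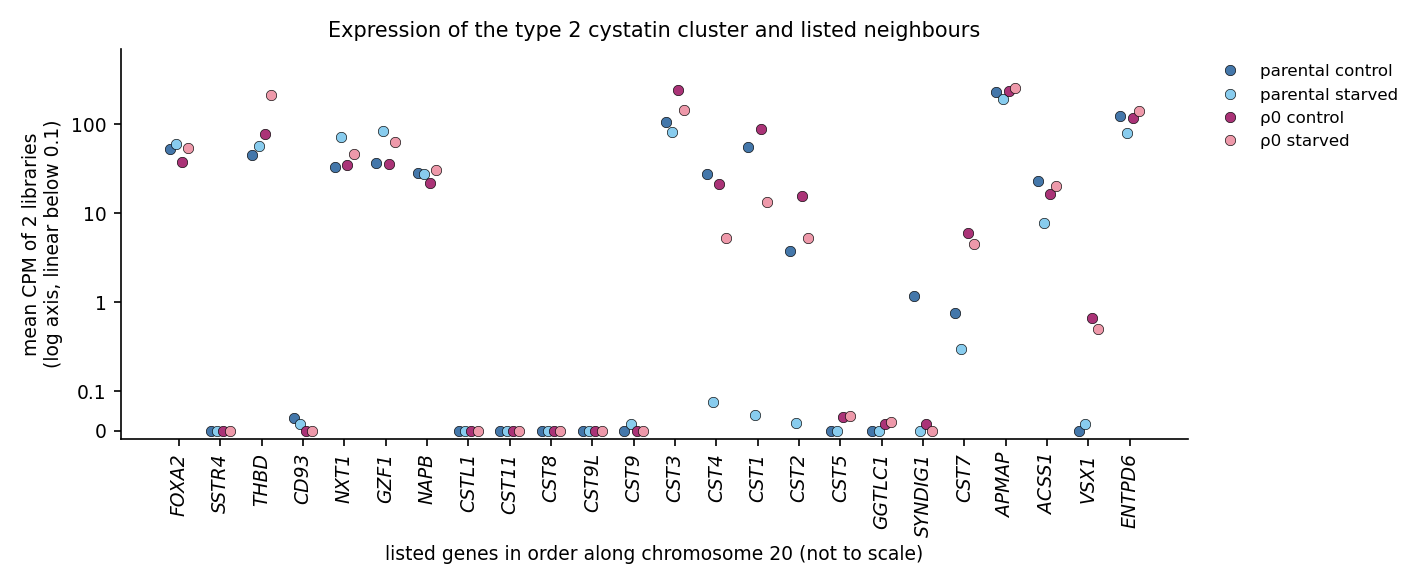
Mean CPM of 2 libraries (vertical axis, logarithmic above 0.1 and linear below) for the listed genes in their order along chromosome 20, spaced evenly and not to scale, with 1 point per group. CST3 is well above 0 in every group, CST4, CST1 and CST2 drop to near 0 in parental starved cells alone, and the cystatins from CSTL1 to CST9 are at or near 0 throughout.

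The proteases that cystatins block are the papain-like cathepsins, which degrade proteins in lysosomes and, when secreted, matrix. Legumain is an asparaginyl protease that some cystatins also bind. All 12 listed genes were tested. In parental starved cells 5 of the 12 were called lower and none higher, against 22.1% and 12.7% of all tested genes. CTSV, cathepsin V, went from 15.9 and 14.4 CPM in control to 1.27 and 1.38 CPM in starved libraries, a log2 fold change of -3.51 ± 0.32 (SE, edgeR quasi-likelihood adjusted p = 6.9e-05). CTSS, the cathepsin of antigen presentation, had a log2 fold change of -2.12, CTSK, the bone-resorbing cathepsin K, of -2.09, CTSO of -1.53 and CTSB, the abundant cathepsin B, of -1.14 (adjusted p between 2.9e-05 and 9.1e-04). CTSC, which activates granule serine proteases, had a log2 fold change of 0.36 (adjusted p = 0.0090), short of the fold threshold. The median over the 12 was -0.68, against -0.07 over all tested genes.

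In ρ0 starved cells 1 of the 12, CTSV, was called lower, at 5.24 and 2.73 CPM in control and 1.86 and 1.41 CPM in starved libraries (log2 fold change -1.27, standard error 0.32, adjusted p = 0.017). The ρ0 controls of CTSV differed widely, and without ρ0 control replicate 1 the value was -0.72 and no longer called. Leaving out ρ0 starved replicate 1 or 2 also ended the call (adjusted p = 0.0616 and 0.115). None was called higher, and the median was -0.29. Over all tested genes 8.19% were called lower, about the same share as 1 of 12. The response of the lines differed, at an adjusted p under 0.05 of the interaction, for 7 of the 12. It was higher in ρ0 cells for 6, namely CTSS (difference 2.45), CTSV (2.24), CTSO (1.74), CTSK (1.34), CTSB (1.24) and CTSL (0.55), and lower for CTSC (-0.89). Over all tested genes the difference was called higher in ρ0 cells for 21.6% and lower for 18.8%. The call was lost for CTSK in 6 and for CTSL in 5 of 18 alternatives, with adjusted p up to 0.0863 and 0.0892.

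**Figure D5:**
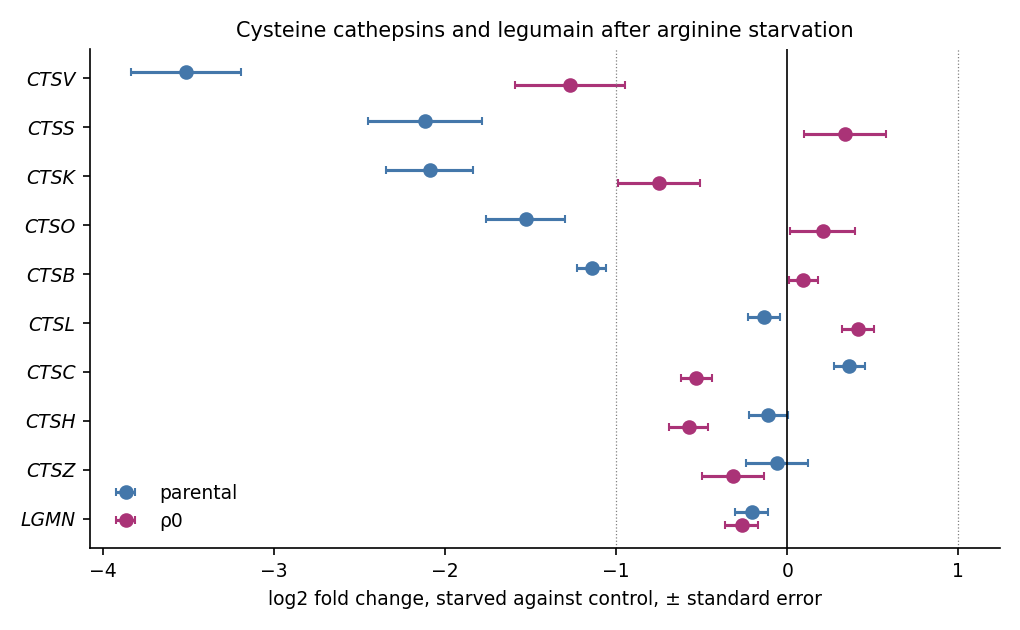
Log2 fold changes after arginine starvation, with standard errors (horizontal axis), for cysteine cathepsins and legumain in parental and ρ0 cells. CTSF and CTSW, with under 20 counts in the parental libraries, are left out. CTSV, CTSS, CTSK, CTSO and CTSB lie beyond -1 in parental cells, and of these CTSV alone does so in ρ0 cells.

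Between the lines in full medium, 3 of the 12 protease genes were called higher and 2 lower in ρ0 cells, against 13.6% and 17.3% of all tested genes. CTSF, cathepsin F, had 1 and 0 counts in parental control and 1467 and 1061 in ρ0 control, at least 438-fold higher. It passed the filter only through ρ0 libraries, in which it was high, so a difference there had to appear. The call of CTSF is therefore not read as a result, and of the 3 called higher only CTSS and CTSL are. Nothing is read from their number against the 13.6% of all tested genes. CTSS had 6.21 and 6.46 CPM in parental control and 80.4 and 45.0 CPM in ρ0 control, and CTSL had 105 and 108 against 268 and 229 CPM, with log2 fold changes of 3.31 and 1.22. CTSC, at 817 and 810 CPM in parental control and 135 and 155 CPM in ρ0 control, was lower by 2.49 ± 0.10 on the log2 scale (SE, edgeR quasi-likelihood adjusted p = 1.8e-06), and CTSV fell by 1.94. CST6 and several of the cathepsins other than CTSF thus differed between the lines by far more than between their replicates.

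Cathepsins of other classes, which cystatins do not block, were tested for 3 of 4 genes. CTSA, a serine carboxypeptidase, had 157 and 168 CPM in parental control and 38.8 and 38.5 CPM in parental starved libraries and was called lower, with a log2 fold change of -2.07 ± 0.13 (SE, adjusted p = 1.6e-05). In ρ0 cells its value was 0.36 (adjusted p = 0.048). CTSD, the aspartic protease cathepsin D, was higher in ρ0 control than in parental control cells by 3.40 ± 0.12 (SE, adjusted p = 1.2e-06, same test). In parental starved cells CTSD had a log2 fold change of -0.99 (edgeR quasi-likelihood adjusted p = 1.5e-04), just short of the fold threshold. In ρ0 starved cells it was at -0.13 (adjusted p = 0.38, same test). CTSE was called lower in ρ0 starved cells at -1.33 (adjusted p = 0.038), but at -0.56 without ρ0 control replicate 1 it was not called, nor without any of the parental or ρ0 starved libraries or with DESeq2 (adjusted p = 0.0757).

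Other inhibitors of cysteine proteases were tested for 3 of 4 genes. CAST, which codes for the calpain inhibitor calpastatin, was not called in either starvation response and was higher in ρ0 control cells by 1.18 ± 0.18 (SE, adjusted p = 9.8e-04). It had 161 and 154 CPM in parental control and 434 and 279 CPM in ρ0 control, and at 0.82 without ρ0 control replicate 1 it was not called. SERPINB3 and SERPINB4, squamous serpins of which the former inhibits cathepsins, had 22 and 19 and 67 and 42 counts in parental control, and 2 and 1 and 4 and 7 in parental starved libraries. Both passed the filter only through parental control, the group in which they were high. A fall there had to appear, so their calls are not read as results. SERPINB3 was at least 5.86-fold lower in parental starved cells, and SERPINB4 had a log2 fold change of -3.06. They are close paralogs too, so their reads could have been split. In ρ0 cells both had at most 5 counts in any library.

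CSTA is known as a part of the cornified envelope of squamous cells, and 5 of 13 genes of that envelope were tested. SPRR1A, SPRR1B and SPRR3 had no counts in any library. IVL, involucrin, had 0 and 1 counts in parental control, 13 and 19 in parental starved libraries and none in ρ0 cells. It passed the filter only through the group in which it was high, so a difference there had to appear and its call is not read as a result. TGM5, a transglutaminase, was called lower by starvation in both lines. Its counts went from 16 and 9 to 0 and 0 in parental cells. In ρ0 cells they went from 28 and 19 to 0 and 2. TGM5 too passed the filter only through libraries in which it was high, those of control cells, so its calls are not read as results. PPL, periplakin, had 5 and 16 counts in parental control and 3422 and 2445 in ρ0 control. EVPL and TGM1 were not called in either starvation response.

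The tested genes outside the list whose pattern over the 8 libraries was closest to that of CST1 were GBP2, FPR1, MPZL2, ITGB4 and GBP1. Their root mean square distances of centred log2 CPM were 1.37 to 1.62, against 1.02 between CST1 and CST4 and 1.37 between CST1 and CST2. GBP2, an interferon-inducible GTPase, had 1338 and 1239 counts in parental control, 8 and 12 in parental starved, 1695 and 795 in ρ0 control and 552 and 470 in ρ0 starved libraries. FPR1, the formyl peptide receptor, had 131 and 127, 0 and 0, 583 and 175, and 86 and 55 counts in the same order. In these 5 genes ρ0 control replicate 1 held more counts than replicate 2, the opposite of CST1 with 1684 and 3660 counts. The genes closest to CST6 were FAM198A, TUB, ESYT3, IRX1 and C1orf216, at distances of 0.25 to 0.35. Each of the 5 had at most 28 counts in any parental library and at least 26 in each ρ0 library.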

How the data were processed

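RNA-seq was analysed for 8 libraries in 4 groups of 2. The authors deposited raw counts in 1 table with a row for each gene symbol. The submitters' processing notes name Bowtie, Partek and hg19, without versions or roles, and the counting tool, annotation and strand setting are not given in the sources used here. Counts were fitted with edgeR 4.0.16 in R 4.3.3. Genes were kept by filterByExpr, libraries scaled by TMM, and the quasi-likelihood model given all 8 libraries and a term for each group (4 residual degrees of freedom, common biological coefficient of variation 12.4%). Benjamini-Hochberg adjustment covered 15262 genes. Each SE was obtained from the fold change and its F statistic. The members and lists were chosen with earlier results of these data known. Named genes are the members, the listed genes and the 5 nearest in pattern to CST1 and to CST6 (log2 CPM with a prior count of 2). Transcripts were those of GENCODE v29 (GRCh38), matched for every member, and gene order is that of RefSeq on GRCh38.p14, so no coordinates are given. Fits were tested on simulated data with the same spread in every group, unlike these data, in which the ρ0 control libraries spread most. Alternatives used DESeq2 1.42.0, limma 3.58.1, other scalings, filters, a replicate block, fewer libraries and summed paralogs. Another listed marker and another coding stretch are not reported here.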

Additional observations from a re-analysis of the deposited data

Results flagged for a closer look

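The starvation response differed between ρ0 and parental cells by its own test for 14 of 34 listed genes tested, higher in ρ0 cells for 11 and lower for 3, against 21.6% and 18.8% of all tested genes. The differences are given as ρ0 minus parental on the log2 scale with the edgeR quasi-likelihood adjusted p. Among the proteases these were CTSS (2.45, adjusted p = 0.0038), CTSA (2.44, 2.3e-04), CTSV (2.24, 0.0077), CTSO (1.74, 0.0043), CTSK (1.34, 0.021), CTSB (1.24, 5.4e-04), CTSD (0.87, 0.0046), CTSL (0.55, 0.015) and CTSC (-0.89, 0.0022). Among the neighbours of the cystatin cluster they were ACSS1 (1.85, 0.013), THBD (1.14, 0.0064), ENTPD6 (0.89, 0.0075), NXT1 (-0.72, 0.047) and GZF1 (-0.42, 0.031). The call held under each of 18 alternatives for 9 of the 14, and was lost in 10 of them for GZF1 (adjusted p up to 0.14), in 9 for NXT1 (up to 0.164), in 6 for CTSK, in 5 for CTSL and in 2 for ACSS1.

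In CPM, CST6 and CSTB lay above both controls in the parental starved libraries and below both controls in the ρ0 starved libraries. For CST6 the parental side rests on 8 and 9 against 9 and 13 counts, too few for a direction, and for CSTB the parental log2 fold change of 0.28 was 0.11 with scaling by total counts. The differences of -1.59 for CST6 and -0.51 for CSTB were not tested, and they contain the comparison on which the genes were chosen.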

How the results depend on the processing

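The number of cystatins called lower in ρ0 starved cells was 3 to 6 over the alternatives, and without single libraries 3 or 4. The number called higher in ρ0 control cells, of CST2, CST3, CST6 and CSTB, was 3 or 4. The falls of CST1, CST2 and CST4 in ρ0 cells were called under each alternative run, those without a library included. At any fold change, 6 cystatins were lower in ρ0 starved cells, and these 2 further ones were the least stable. With a weight for each group in limma-voom the adjusted p was 0.0624 for CST3 and 0.268 for CSTB, and without ρ0 starved replicate 2 it was 0.0905 and 0.354. CST6 in ρ0 starvation was not called without the filter (-0.99), in a fit to the 4 ρ0 libraries alone (adjusted p = 0.024, just short of the fold threshold) or without ρ0 starved replicate 2 (-0.94). With CST1, CST2 and CST4 summed, the line difference of CST4 turned from -0.38 to 0.51, as the sum is mostly CST1. For the 12 protease genes, the number called lower in ρ0 starved cells was 0 with group weights and in a fit to the 4 ρ0 libraries, 4 at any fold change, and 0 to 1 without single libraries. The number called higher was 1 at any fold change in each line and 0 to 1 in ρ0 cells without single libraries. In ρ0 control against parental control cells, 6 were higher at any fold change and 3 to 5 without single libraries. These numbers include CTSF, whose call is not read as a result. The response difference was lower for 2 with DESeq2's size factors and with DESeq2, and for 1 to 4 without single libraries, and it was higher for 5 or 6, or 4 to 6 without single libraries. With the replicate number as a block, 4 cystatins were again lower in ρ0 starved and 4 higher in ρ0 control cells, and of the results examined the response difference of NXT1 lost its call (-0.72), while the adjusted p of CSTB in ρ0 starvation rose to 0.072. Deviations of same-numbered libraries did not correlate (r between -0.053 and 0.039), so no shared replicate effect was seen. Whether same-numbered libraries were prepared together cannot be told from these values. With 2 libraries a group, genes at 3 counts or fewer allow bounds only. The causes of these changes were not tested.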
